A study of Mus musculus with 32 samples.

Results

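The hippocampus and the striatum of mice that had received only vehicle, and had met only an unfamiliar chamber, were compared across all genes. The comparison rests on 8 of the 32 libraries of the series, 4 of hippocampus and 4 of striatum, which were chosen by their labels and not by any measured value. Each library held polyadenylated RNA from a frozen hemisphere of a single mouse and region, and the 4 replicates in each group are different mice. All mice were males of the C57BL/6J line (strain label C57BL/6), 12 weeks old. The vehicle, a mix of dimethyl sulfoxide, Kolliphor and saline, was given intraperitoneally 1 hour before behaviour, and tissue was taken 1 hour after it. Context mice spent the session in the conditioning chamber with 0 foot shocks. Vehicle mice that went through contextual fear conditioning (CFC, 2 foot shocks in the same chamber) served as a second set of mice for the same region contrast, with no library in common. Both sets carry the injection and the chamber, so none of these mice was untouched, and mice of a cage shared their behaviour, so that cage and behaviour cannot be told apart. The remaining libraries, from mice given the histone deacetylase inhibitor CI-994, entered only the joint fit and the check of overlap in other libraries.

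The striatum is made up mostly of GABAergic medium spiny projection neurons, which read glutamate input from cortex and thalamus under the control of dopamine. They form a direct pathway, with the D1 dopamine receptor, substance P and dynorphin, and an indirect pathway, with the D2 dopamine receptor, the adenosine receptor Adora2a and enkephalin, and both signal through cAMP and protein kinase A. Scattered cholinergic interneurons give the striatum its acetylcholine. The hippocampus is built from glutamatergic granule cells of the dentate gyrus and pyramidal cells of the CA fields, with GABAergic interneurons among them. In bulk tissue, fewer cells of a type and less RNA per cell cannot be told apart, which applies to every level below.

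Levels are counts relative to a library's total, in the usual unit CPM, totals ran from 27002334 to 35246359 counts, and ± gives the SD over the 4 libraries of a group. Log2 fold changes are hippocampus over striatum, with SE and adjusted p (Benjamini-Hochberg) from the edgeR quasi-likelihood fit. Of 19198 genes tested, 8471 (44.1%) were called at adjusted p under 0.05, 4647 (24.2%) higher in hippocampus and 3824 (19.9%) higher in striatum. Of these, 1712 (8.92%) were over 2-fold higher in hippocampus and 1502 (7.82%) over 2-fold higher in striatum. Counts of called list members below stand against these shares, and a gene said to lead a list has 1 of the 3 largest folds in its direction among those called with at least 5 CPM in the higher region. The median log2 fold change over all genes was 0.02 and the median absolute value 0.31. The 4 libraries of one region all lay above the 4 of the other for 4674 genes (24.3%) higher in hippocampus and 3217 (16.8%) higher in striatum. Replicates 1 and 2 deviated from their group means unlike replicates 3 and 4 in both regions, so the contrast was also fitted within each pair: 1542 and 1352 genes were over 2-fold higher in hippocampus and in striatum with replicates 1 and 2, and 1417 and 1467 with replicates 3 and 4. Of the 191 genes named below by rule, 186 had groups that did not overlap. This count follows in part from the rule, which favours large folds and, in the ranking over all genes, requires no overlap. It is thus no test of the named genes. Whether reads were counted by strand is not stated in the labels, and 24 of these genes share over 300 exonic bases with a gene on the other strand, so reads of that partner cannot be told apart from theirs. They are Adora1, Arpp21, Asic4, Bdnf, C1ql3, Chrm1, Drd5, Dsp, Gnal, Gnas, Gng2, Grm2, Hrh3, Htr1b, Kcnj3, Kcnj6, Nr2f2, Ppp1r1b, Prdm8, Ptprv, Rarb, Slc32a1, Slc9a4 and Syna.

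**Figure D1:**
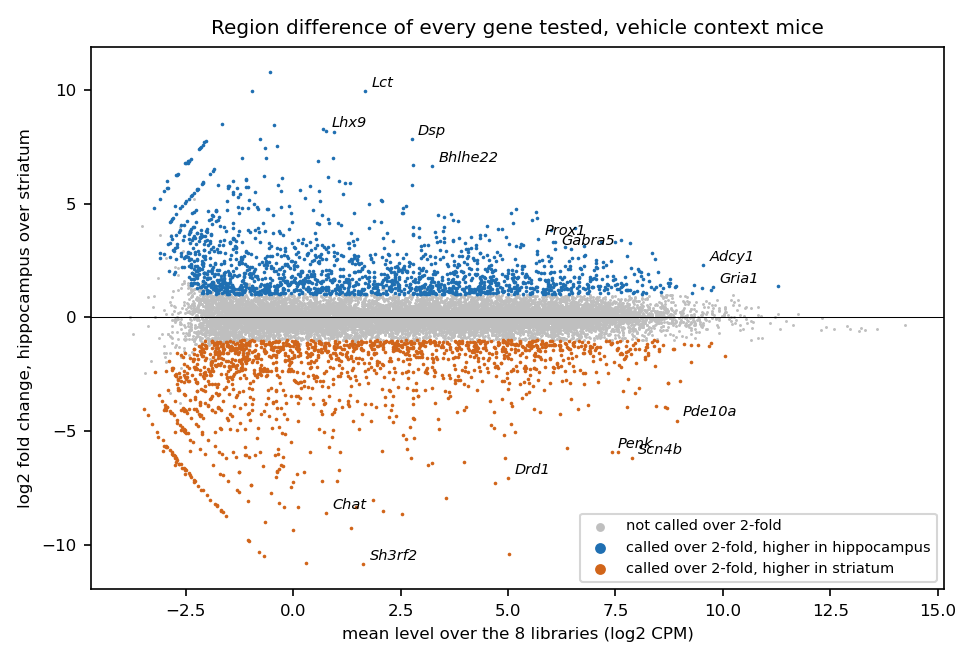
Log2 fold change, hippocampus over striatum, of each of the 19198 genes tested (vertical axis) against its mean level over the 8 vehicle context libraries in log2 CPM (horizontal axis). Each point is 1 gene, blue for the 1712 called over 2-fold higher in hippocampus, orange for the 1502 called over 2-fold higher in striatum and grey for the rest.

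The tissue labels were first read against defining markers. All 18 markers of medium spiny neurons were higher in striatum, and their mean level was 9.55 to 9.73 log2 CPM in the striatum libraries and 5.62 to 5.67 in the hippocampus libraries. The markers of dentate granule cells averaged 5.24 to 5.69 log2 CPM in hippocampus and 2.44 to 2.70 in striatum, with 11 of 14 higher in hippocampus. The markers of excitatory neurons shared by hippocampus and cortex averaged 6.32 to 6.57 log2 CPM in hippocampus. In striatum they averaged 3.55, 2.59, 2.67 and 4.17 in replicates 1 to 4, so replicates 1 and 4 stood above the other two. Neurod6, a transcription factor of cortical and hippocampal excitatory neurons, had 9.72, 1.25, 3.56 and 20.2 CPM in these libraries. Neocortex was not sampled, and the markers of neocortical layers averaged 3.51, 3.19, 3.04 and 3.59 log2 CPM in the striatum libraries. Every count of calls over all genes stayed within 1.5 times without striatum replicates 1 and 4: 1698 genes were then over 2-fold higher in hippocampus and 1591 in striatum. Hippocampus replicate 1 stood apart in choroid plexus markers, whose mean was 1.91 log2 CPM there and 0.84, 0.46 and 0.42 in the other libraries. No excitatory marker was at 0 counts in the striatum group. The part of neighbouring tissue in single results was not tested. Values that moved by over 1.5 times without these libraries are given beside the gene or here. Without striatum replicates 1 and 4, log2 fold changes were 6.49 in place of 5.89 for Adra1d, 7.49 and 6.65 for Bhlhe22, 7.49 and 8.13 for C1ql2, 5.21 and 3.88 for C1ql3, 4.09 and 3.19 for Chrna5, 3.97 and 2.43 for Emx1, 3.39 and 2.6 for Fezf2, and 4.6 and 3.70 for Fgf10. They were 6.35 in place of 5.61 for Glp2r, 3.01 and 2.41 for Gng2, 5.31 and 4.6 for Grm2, 7.90 and 7.01 for Neurod1, 4.17 and 3.40 for Nptx1, 7.47 and 6.68 for Prdm8, 2.75 and 2 for Slc17a6, and 9.28 and 8.28 for Slc9a4. Of these 16 genes all but C1ql2 had the larger fold without the pair. They were listed because they moved by over 1.5 times. The pair was singled out by the excitatory neuron markers after the data were seen. Bhlhe22, Emx1, Neurod1 and Nptx1 are on that marker list, as are Kcnj6, Neurod2, Neurod6 and Slc17a7 below. Their larger folds without the pair follow in part from that choice and are not separate support.

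Dopamine receptors had the largest median absolute log2 fold change of the 11 receptor lists, 5.77. All 4 tested genes were called, 3 higher in striatum and 1 higher in hippocampus, against 44.1% of all genes called. Drd1 (chromosome 13, 54051183 to 54055705, mm10), the receptor of the direct pathway, had 373, 368, 381 and 367 CPM in striatum and 2.72, 2.89, 2.49 and 3.41 CPM in hippocampus. Drd2 (chromosome 9, 49340627 to 49408177), the receptor of the indirect pathway and of dopamine terminals, had 358, 359, 307 and 274 CPM in striatum and 2.41, 2.15, 2.01 and 1.97 CPM in hippocampus. Striatum was higher by 132-fold for Drd1 (log2 fold change −7.04 ± 0.14 SE, adjusted p = 5.65e-25) and 154-fold for Drd2 (−7.27 ± 0.18, adjusted p = 9.39e-23). Per kilobase of exon, the striatal levels of the pair were near each other, 103 ± 1.72 RPKM for Drd1 and 127 ± 16.3 RPKM for Drd2. Drd5, the other D1-like receptor, ran the opposite way with 17.6, 15.1, 17.4 and 14.7 CPM in hippocampus against 2.92, 3.16, 3.14 and 3.00 CPM in striatum (5.19-fold, adjusted p = 3.14e-17). Per kilobase, Drd5 reached 5.14 ± 0.483 RPKM in hippocampus, where Drd1 had 0.794 ± 0.107 and Drd2 0.838 ± 0.0783 RPKM. Drd3, too low in level to be named by rule, was the third gene higher in striatum.

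Other receptors that modulate cAMP also differed. Adora2a, the adenosine receptor that opposes D2 signalling, had 241, 224, 150.2 and 143 CPM in striatum and 1.22, 0.630, 0.831 and 0.426 CPM in hippocampus, a 242-fold difference (adjusted p = 2.07e-18). Adora1, the inhibitory A1 adenosine receptor, was 1.78-fold higher in hippocampus instead (315 ± 23.9 against 174 ± 17.9 CPM), and the list of adenosine and purine receptors split 3 to 5 among 16 tested. Gpr6, a constitutively active receptor of indirect pathway neurons, was 258-fold higher in striatum, and Oprk1, the kappa opioid receptor, 39.4-fold. Gpr161, an orphan receptor, lay in the other direction, with 117 ± 8.41 CPM in hippocampus and 7.68 ± 0.658 CPM in striatum (14.9-fold). Over the list of opioid, cannabinoid and orphan receptors, 22 of 63 were higher in striatum and 12 in hippocampus, against 19.9% and 24.2% of all genes.

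Serotonin receptors divided by subtype. Of 12 tested, 5 were higher in hippocampus and 4 in striatum, and each of these 9 differed over 2-fold, where 16.7% of all genes did. Htr1a, the inhibitory autoreceptor that is also postsynaptic in hippocampus, had 38.4, 37.8, 38.2 and 37.1 CPM in hippocampus and 2.49, 2.40, 2.31 and 3.72 CPM in striatum (13.5-fold, adjusted p = 2.52e-09). Its relatives Htr1b and Htr1d, which couple to the same inhibitory G proteins, were 13.3-fold and 109-fold higher in striatum. Htr1b had 133, 121, 132 and 113 CPM there against 8.99, 7.59, 11.6 and 9.94 CPM in hippocampus. Htr5b (13.1-fold) and the ligand-gated channel subunit Htr3a (6.98-fold), which marks a class of cortical and hippocampal interneurons, were higher in hippocampus. Htr2a was 2.23-fold higher in striatum. Acetylcholine receptors divided in the same manner, 6 higher in hippocampus and 4 in striatum of 15 tested. The Gq-coupled Chrm1 (1.52-fold) and Chrm3 (3.48-fold) and the nicotinic subunits Chrna7 (1.95-fold) and Chrna5 (9.13-fold) were higher in hippocampus, whereas the Gi-coupled Chrm4, a receptor of direct pathway neurons, was 8.07-fold higher in striatum (50.5 ± 13.2 against 6.37 ± 2.36 CPM). Among adrenergic and histamine receptors, 1 of 11 was higher in hippocampus, Adra1d, with 20.1 ± 5.57 against 0.321 ± 0.263 CPM (59.5-fold). Its highest striatum library was replicate 4 with 0.714 CPM, and the fold rose from a log2 value of 5.89 to 6.62 without it. The Gi-coupled Hrh3 (6.84-fold) and Adra2c (3.05-fold) were among the 4 higher in striatum.

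Of 51 neuropeptide receptors, 23 were higher in hippocampus and 11 in striatum, where 24.2% and 19.9% of all genes were, and their median log2 fold change was 0.63. Npy2r, a presynaptic receptor for neuropeptide Y, had 59.8, 69.8, 77.6 and 75.2 CPM in hippocampus and 4.89, 5.91, 7.89 and 6.24 CPM in striatum (11.1-fold, adjusted p = 1.61e-14). Rxfp3, the receptor for relaxin 3, was 38.2-fold higher and Glp2r 48.9-fold higher in hippocampus, both from low levels of 6.81 ± 0.409 and 7.18 ± 2.45 CPM. The tachykinin receptors were the opposite: Tacr1, the receptor for substance P, had 58.0 ± 7.92 CPM in striatum and 1.98 ± 0.424 CPM in hippocampus (30.0-fold), and Tacr3 was 4.58-fold higher in striatum. Mchr1 was 2.86-fold higher in striatum.

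The lists of ionotropic glutamate receptors and of ionotropic GABA and glycine receptors had median absolute log2 fold changes of 0.75 and 0.72. Of 18 ionotropic glutamate receptor genes, 7 were higher in hippocampus and 6 in striatum. Gria1, an AMPA receptor subunit, had 1400.1, 1423, 1537 and 1415 CPM in hippocampus and 539, 598, 542 and 583 CPM in striatum, a 2.5-fold difference (log2 fold change 1.32 ± 0.06, adjusted p = 4.04e-17). The NMDA receptor subunit Grin2a was 3.8-fold higher in hippocampus and Grin2b 1.53-fold. Per kilobase, Grin2a stood at 27.6 ± 2.79 RPKM in hippocampus and 7.10 ± 0.566 RPKM in striatum, and Grin2b at 38.5 ± 4.29 and 24.7 ± 2.43 RPKM. Among kainate receptor subunits, Grik4 (6.71-fold) and Grik1 (3.21-fold) were higher in hippocampus and Grik3 (2.51-fold) in striatum. GABA-A receptor subunits also differed in kind. Gabra5, the subunit of extrasynaptic receptors in hippocampal pyramidal cells, had 181, 198, 230.2 and 209 CPM in hippocampus and 17.8, 22.1, 25.8 and 33.2 CPM in striatum (8.09-fold, adjusted p = 1.76e-12), and Gabrb1 was 2.29-fold higher in hippocampus. Gabrd, the delta subunit of tonic receptors, had 127 ± 15.5 CPM in striatum and 17.7 ± 4.96 CPM in hippocampus (7.29-fold), and Gabra4 (2.16-fold) and Gabrg3 (2.66-fold) were higher in striatum with it. These were the 3 members called higher in striatum, against 8 of 18 higher in hippocampus. DESeq2 called 5 higher in striatum. Of the 9 metabotropic glutamate and GABA-B receptor genes tested, Grm2 (24.3-fold) and Gabbr2 (3.28-fold) were higher in hippocampus and 6 were higher in striatum, led by Grm4 (11.5-fold) and the astrocytic Grm3 (2.28-fold). Grm2 had 53.5, 29.3, 26 and 19.8 CPM in hippocampus, where replicate 1 was highest.

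**Figure D2:**
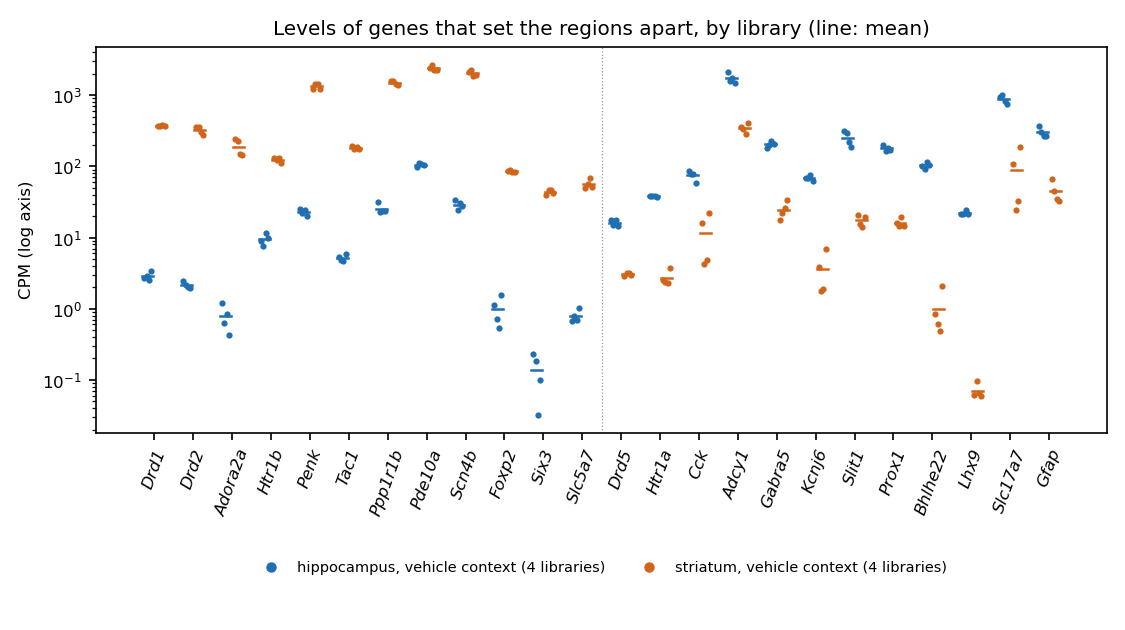
CPM on a log axis of 24 genes in each of the 4 hippocampus (blue) and 4 striatum (orange) vehicle context libraries, with a line at each group mean. Genes left of the dotted line were higher in striatum and those right of it higher in hippocampus, and for each of these 24 genes the groups did not overlap.

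Neuropeptide precursors held the ligands of several of these receptors. Penk, the precursor of enkephalin and transmitter of the indirect pathway, had 1238, 1454, 1455 and 1227 CPM in striatum and 24.8, 21.8, 24.7 and 19.9 CPM in hippocampus (60.1-fold, adjusted p = 1.4e-22). Tac1, the precursor of substance P, had 191, 173, 187 and 177 CPM in striatum and 5.28, 4.85, 4.67 and 5.90 CPM in hippocampus (35.9-fold), and Pdyn, the precursor of dynorphin, was 7.08-fold higher in striatum (113 ± 18.8 against 16.3 ± 2.26 CPM). Per kilobase the order in striatum was Penk at 822 ± 78.3, Tac1 at 53.6 ± 2.48 and Pdyn at 39.1 ± 6.5 RPKM. Cck, the precursor of cholecystokinin, ran the other way with 87.1, 78.9, 77.2 and 58.9 CPM in hippocampus and 15.9, 4.18, 4.81 and 22.1 CPM in striatum (6.27-fold, adjusted p = 0.000485). Its striatal level was higher in replicates 1 and 4, the libraries with more excitatory neuron markers, and without them its log2 fold change was 4.00 in place of 2.65. Vip, a peptide of interneurons, behaved alike, at 2.28 with all libraries, 3.64 without that pair and 3.10 without replicate 4 alone, and with replicates 3 and 4 alone its call was lost (adjusted p = 0.103). Grp was at 5.92 ± 1.61 CPM in hippocampus and at 0.178 CPM or less in striatum (log2 fold change 6.14, and 6.93 without striatum replicate 4). In all, 10 of 30 genes on the precursor list were higher in hippocampus (6 with replicates 3 and 4 alone) and 7 in striatum. The 10 include Nxph1 (1.34-fold), which is also on the list of synaptic organizers and is not a peptide precursor.

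Promoter sequence is shown for 3 genes that hold a cAMP response element, the motif through which the cAMP pathway acts on peptide and activity-regulated genes. The element of the enkephalin gene type, TGCGTCA, was searched on both strands in the 250 bases before the start site (RefSeq starts, GRCm38.p6), which were given for 12833 of the 19198 genes tested. It was found in 1.75% of all promoter windows, in 2.64% of those of tested genes, in 0.740% of those of genes over 2-fold higher in hippocampus and in 1.82% of those of genes over 2-fold higher in striatum. The palindromic element TGACGTCA was in 2.33%, 0.941% and 1.26% of the last 3 sets. Both elements were thus in a smaller share of the windows of region-differing genes than of tested genes. A NeuroD-type E-box, CATCTG, was in 11%, 13.2% and 13.4% of these sets and a homeodomain core, TAATTA, in 2.89%, 3.56% and 4.11%, so both stood at similar shares for the 2 regions. Among the genes named here Arpp21, Cck, Chrna5, Isl1, Kcnab2, Nr4a1, Rgs4, Slc17a6 and Tac1 held the enkephalin type, and the 3 shown were picked after the match was seen. Tac1 (chr6:7554811-7554928, plus strand) had 1 copy, whose first base lies 199 bases before the start, Cck (chr9:121495695-121495803, minus strand) had 1 copy 49 bases before it, and Nr4a1 (chr15:101266596-101266845, plus strand) had 4 copies, the nearest 42 bases before it. Capitals mark the element.
Tac1: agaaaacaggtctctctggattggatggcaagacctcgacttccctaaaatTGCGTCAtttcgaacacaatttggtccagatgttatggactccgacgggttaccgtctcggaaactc
Cck: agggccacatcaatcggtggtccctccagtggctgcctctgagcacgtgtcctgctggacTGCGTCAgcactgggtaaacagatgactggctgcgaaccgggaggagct
Nr4a1: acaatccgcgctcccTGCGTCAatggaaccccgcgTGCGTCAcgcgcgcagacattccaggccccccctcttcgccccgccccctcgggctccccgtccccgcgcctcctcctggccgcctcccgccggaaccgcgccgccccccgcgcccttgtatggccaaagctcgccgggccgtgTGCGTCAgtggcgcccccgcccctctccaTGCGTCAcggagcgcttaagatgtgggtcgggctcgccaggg
Tac1 was far higher in striatum and Cck higher in hippocampus, so the same letters stood before genes of opposite regional direction. A match describes the letters and not a bound site.

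Of 31 genes of transmitter synthesis and transport, 14 were higher in striatum and 9 in hippocampus (5 with replicates 3 and 4 alone). Slc17a7, the vesicular glutamate transporter VGLUT1 of cortical and hippocampal neurons, had 952, 1016, 826 and 752 CPM in hippocampus and 109, 24.3, 32.9 and 188 CPM in striatum. The striatal values were lowest in replicates 2 and 3. The fold was 9.77 (log2 fold change 3.29 ± 0.95, adjusted p = 0.00539), and without striatum replicates 1 and 4 the log2 fold change was 4.89 (3.93 without replicate 4 alone). With replicates 3 and 4 alone the Slc17a7 call was lost (adjusted p = 0.111). Slc17a6 (VGLUT2) was 4-fold higher in hippocampus with adjusted p = 0.0388, a call that was lost without hippocampus replicate 1, 2 or 4 or striatum replicate 1, 2 or 3 (adjusted p from 0.055 to 0.107). Gad1, which makes GABA in interneurons and spiny neurons alike, had 662 ± 27.1 CPM in striatum and 377 ± 21.4 CPM in hippocampus (1.79-fold), and Slc32a1, the vesicular GABA transporter, was 4.67-fold higher in striatum. Chat, choline acetyltransferase, had 28.0, 28.9, 27.2 and 21.1 CPM in striatum and 0.142, 0.0370, 0.0639 and 0 CPM in hippocampus (392-fold, and a log2 fold change of −9.46 in place of −8.61 without hippocampus replicate 1), and the choline transporter Slc5a7 was 72.7-fold higher in striatum.

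Enzymes of the dopamine and adenosine signal differed at high levels. Ppp1r1b, which encodes DARPP-32, the phosphatase inhibitor switched by protein kinase A, had 1561, 1596, 1458 and 1378 CPM in striatum and 31.5, 22.8, 23.9 and 23.9 CPM in hippocampus (59.8-fold, adjusted p = 1.59e-18). Pde10a, the cyclic nucleotide phosphodiesterase of spiny neurons, had 2392, 2701, 2250.0 and 2240.1 CPM in striatum and 99.1, 111, 108 and 104 CPM in hippocampus (23.2-fold), and Pde1b was 15.3-fold higher in striatum. The adenylyl cyclases traded places. Adcy5 had 1405 ± 278 CPM in striatum and 95.7 ± 19.8 CPM in hippocampus (15.0-fold), while the calcium-stimulated Adcy1 had 1736 ± 291 CPM in hippocampus and 346 ± 49.8 CPM in striatum (4.92-fold). Per kilobase, Adcy5 stood at 196 ± 38.7 RPKM in striatum and Adcy1 at 139 ± 23.2 RPKM in hippocampus. The phosphodiesterases Pde1a (4.79-fold) and Pde11a (11.4-fold) were higher in hippocampus, and the 39 cyclic nucleotide enzymes split 14 to 16.

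The stimulatory G protein alpha subunits traded places in the same way. Gnal, the olfactory type that couples the Drd1 and Adora2a receptors in striatum, had 1151, 1214, 1189 and 1125 CPM in striatum and 161, 154, 159.8 and 171 CPM in hippocampus (7.39-fold). Gnas, the common type, had 894, 879, 741 and 710.5 CPM in hippocampus and 338, 287, 267 and 326 CPM in striatum (2.59-fold). Rgs9 (53.9-fold) and Rgs4 (7.27-fold), which speed the turn-off of Gi and Go signals, were higher in striatum, and Gng2 was 5.31-fold higher in hippocampus. Of 48 G protein and Rgs genes, 21 were higher in striatum and 13 in hippocampus. The cAMP-regulated phosphoproteins Arpp21 (15.7-fold, 1690.0 ± 135 CPM in striatum) and Arpp19 (8.51-fold) followed Ppp1r1b, and their list of 37 had 11 members higher in striatum and 4 in hippocampus. Among kinases, Prkch (21.7-fold), the regulatory subunit Prkar2b (4.54-fold) and Camk4 (4.42-fold) were higher in striatum. The conventional protein kinase C gene Prkca (2.72-fold) was higher in hippocampus.

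Ion channel families differed in which subunits they used, and of 186 genes 60 were higher in hippocampus and 68 in striatum (68.8% called, against 44.1% of all genes). Scn4b, the beta subunit that gives resurgent sodium current, led those named by rule with 2125, 2298, 1859 and 1908 CPM in striatum and 33.5, 24.6, 30.6 and 27.5 CPM in hippocampus (71.9-fold, adjusted p = 4.48e-22). Sodium channels as a list had 11 of 19 members higher in striatum and 6 in hippocampus, among them Asic4 (15.4-fold higher in striatum). The list's count in striatum was 7 with replicates 1 and 2 alone and 6 when only the 8 libraries were fitted. Of the voltage-gated potassium channels, 15 of 37 were higher in striatum and 11 in hippocampus. Kcnh4 (36.1-fold) and Kcna5 (24.1-fold) led in striatum. Kcng2, a silent modifier of Kv2 channels, had 12.5, 12.9, 12.4 and 13.1 CPM in hippocampus and 0.492, 0.479, 0.578 and 0.535 CPM in striatum (23.8-fold), and Kcnc4, a fast Kv3 channel, was 6.18-fold higher in hippocampus. Kcnd2, the Kv4.2 channel of A-type current in dendrites, differed by 1.53-fold, with 235 ± 13.8 CPM in striatum and 157 ± 7.89 CPM in hippocampus. The auxiliary subunits Kcnab1 (3.37-fold higher in striatum) and Kcnab2 (2.5-fold higher in hippocampus) ran against each other.

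Inward rectifiers were named in both directions. The G protein-gated channels Kcnj6 (GIRK2) and Kcnj3 (GIRK1), which carry the slow inhibition by GABA-B, A1 and 5-HT1A receptors, were 18.7-fold and 6.47-fold higher in hippocampus. Kcnj6 had 68.2, 68.2, 74.6 and 63.2 CPM in hippocampus and 3.81, 1.76, 1.86 and 6.84 CPM in striatum, highest in striatum replicates 1 and 4. Without these replicates its log2 fold change was 5.17 in place of 4.22. Kcnj6 is itself on the excitatory neuron list that set this pair of libraries apart. Chosen after its value was seen, Kcnj16, which is not gated by G proteins, was 2.61-fold higher in hippocampus, and the G protein-gated Kcnj5 was not called (adjusted p = 0.827). The constitutive Kir2 channels Kcnj2 and Kcnj4, which hold spiny neurons at their resting potential, were 5.18-fold and 4.65-fold higher in striatum. Kcnj2 had 76.8, 72.2, 78.8 and 84.8 CPM there and 16.1, 12.1, 16.8 and 16.5 CPM in hippocampus. The sodium-activated channel Kcnt1 was 7.42-fold higher in striatum. Hcn2, a subunit of the hyperpolarization-activated channels, was 1.69-fold higher in striatum. The TRPC channels Trpc4 (9.08-fold), Trpc5 (5.59-fold) and Trpc6 (4.43-fold) were higher in hippocampus. Among calcium channels, the accessory subunits Cacng4 (8.05-fold) and Cacna2d2 (4.86-fold) were higher in striatum. The T-type pore Cacna1g was 2.51-fold higher in hippocampus, a call lost with replicates 3 and 4 alone (adjusted p = 0.112), and the T-type pore Cacna1h was not called, at 89.8 ± 22.9 and 96.8 ± 26.3 CPM (adjusted p = 0.656). The calcium-activated chloride channel Ano2 (9.16-fold) and its family member Ano3 (2.79-fold) were higher in striatum.

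**Figure D3:**
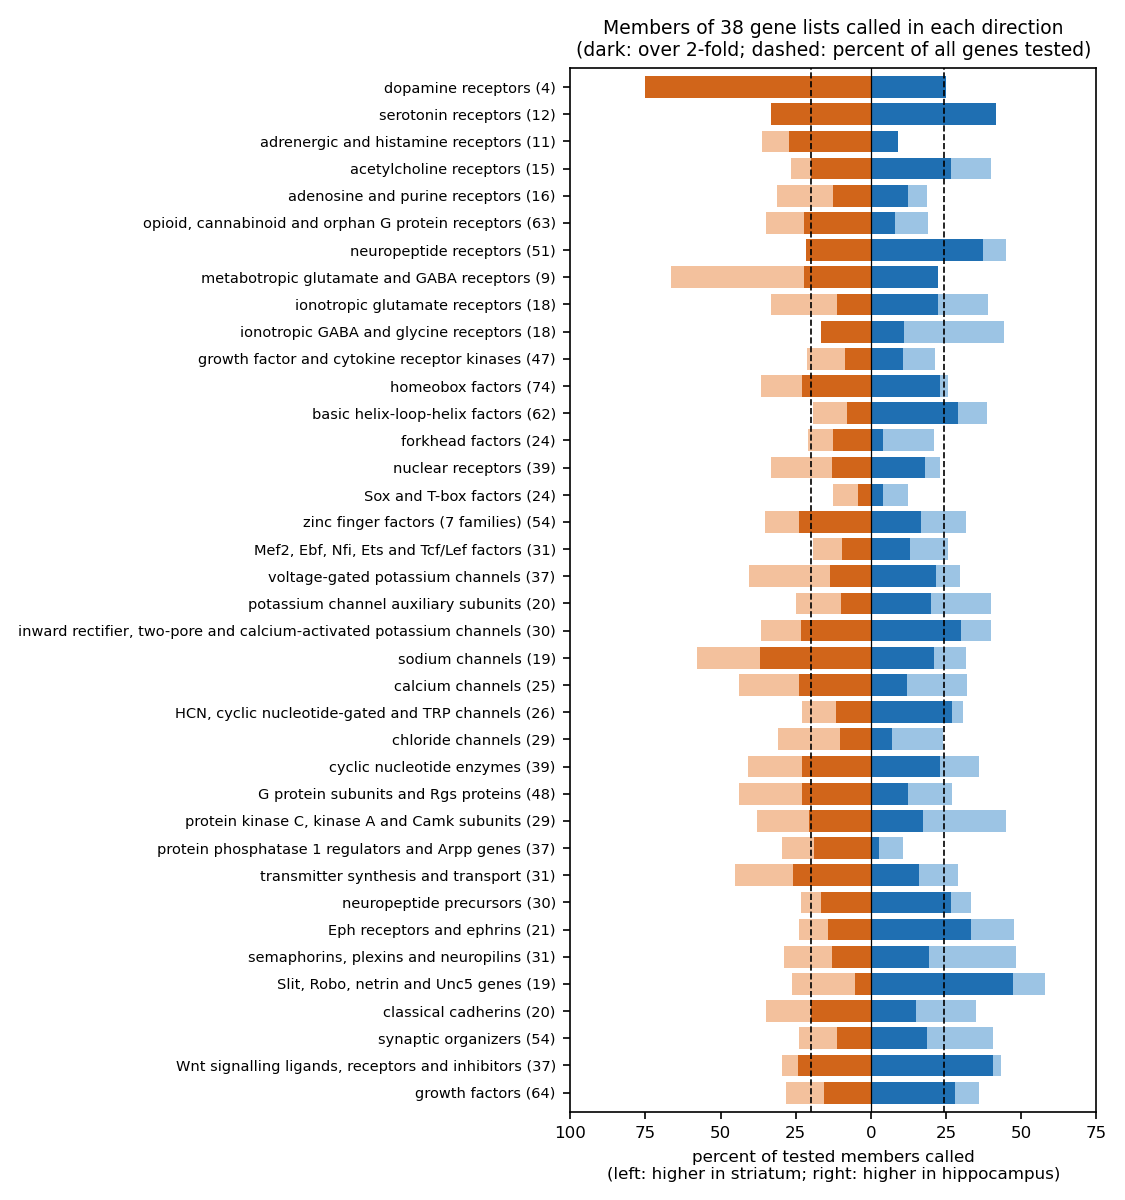
Percent of the tested members of each of 38 gene lists called higher in striatum (left, orange) or higher in hippocampus (right, blue), with the number tested in brackets. The dark part of a bar is the share over 2-fold, and the dashed lines mark the share of all genes tested, 19.9% and 24.2%.

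Of 308 tested genes in the transcription factor lists, 85 were higher in hippocampus and 85 in striatum (55.2% called, against 44.1% of all genes). Several of the differences were near absolute. Those toward striatum included Foxp2, Six3, Isl1 and Lhx8. Foxp2 had 84.7, 88.0, 83.7 and 82.8 CPM in striatum and 1.11, 0.704, 0.543 and 1.54 CPM in hippocampus (87.9-fold), and Foxp1, which is also in pyramidal neurons, was 5.28-fold higher in striatum. Six3, a homeobox factor of spiny neuron development, had 40.0, 46.2, 46.8 and 42.0 CPM in striatum and 0.227, 0.185, 0.0320 and 0.0984 CPM in hippocampus (317-fold). Isl1, of direct pathway and cholinergic neurons, had 12.8 ± 1.32 CPM in striatum against 2 counts in all hippocampus libraries together, a ratio of 794 with a 95% counting interval from 219 to 6559. Lhx8, of cholinergic neurons, had 5.25 ± 1.34 CPM in striatum and no count in hippocampus, which makes it at least 215-fold higher against 3 counts over the hippocampus group. Dlx6 was 13.6-fold higher in striatum. The retinoic acid receptor Rarb (28.9-fold) and its partner Rxrg (80.4-fold) led the nuclear receptors, and Ebf1 (8.99-fold), Tcf7 (9.52-fold), Klf5 (4.99-fold), Zfp503 (5.14-fold) and the clock-related Npas2 (4.85-fold) led their lists. Bcl11b (CTIP2), which spiny and pyramidal neurons share, was 1.96-fold higher in striatum with 237 ± 5.47 and 123 ± 7.27 CPM.

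In hippocampus several basic helix-loop-helix factors of excitatory neurons were higher. Of the 62 factors of this family, 24 were higher in hippocampus and 12 in striatum (24.2% and 19.9% of all genes), and 18 and 5 of these were over 2-fold (8.92% and 7.82% of all genes). Neurod1 had 24, 18.3, 21.5 and 20.3 CPM in hippocampus and 0.123, 0.160, 0 and 0.327 CPM in striatum (129-fold). Bhlhe22 had 102, 92.1, 115 and 103 CPM in hippocampus and 0.830, 0.607, 0.481 and 2.05 CPM in striatum (100.1-fold, adjusted p = 5.79e-11). Neurod2 (23.6-fold) and Neurod6 (23.9-fold) were lower in all striatum libraries as well, and their log2 fold changes were 6.14 and 6.41 without striatum replicates 1 and 4 against 4.56 and 4.58 with them. Without striatum replicate 4 alone the log2 fold changes were 7.66 in place of 7.01 for Neurod1, 7.25 in place of 6.65 for Bhlhe22, and 5.24 and 5.39 for Neurod2 and Neurod6. Lhx9, a homeobox factor, had 21.7, 21.5, 24.2 and 21.4 CPM in hippocampus and 0.0615, 0.0958, 0.0642 and 0.0595 CPM in striatum (294-fold). Prdm8, a partner of Bhlhe22, was 103-fold higher in hippocampus (log2 fold change 6.68, and 7.36 without striatum replicate 4). Prox1, the factor that sets dentate granule cell identity, had 201, 164, 183 and 170.3 CPM in hippocampus and 16.2, 14.5, 19.7 and 14.5 CPM in striatum (10.8-fold, adjusted p = 1.05e-19).

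Zbtb20, a factor of hippocampal identity, was 2.7-fold higher in hippocampus (639.7 ± 106 against 232 ± 33.3 CPM), and Emx1 5.4-fold from 1.64 ± 0.469 CPM. The Emx1 call was lost with replicates 3 and 4 alone (adjusted p = 0.0517), and its log2 fold change was 3.02 in place of 2.43 without striatum replicate 4. Nr3c2, the mineralocorticoid receptor, was 4.47-fold higher in hippocampus, Nr2f1 5.02-fold and Nr2f2 6.54-fold. The nuclear factor I genes Nfib (5.51-fold), Nfix (3.35-fold) and Nfia (2.33-fold) were higher in hippocampus, as were Zfpm2 (10.6-fold), Glis3 (5.21-fold) and Fezf2 (6.05-fold). The activity-regulated factors Egr2, Nr4a1 and Npas4 were called higher in striatum 1 hour after the unfamiliar chamber. Egr2 had 37.1, 19.1, 23.6 and 15.8 CPM in striatum and 7.21, 4.18, 4.38 and 2.75 CPM in hippocampus (5.23-fold, adjusted p = 1.09e-05). Nr4a1 had 175, 84.3, 83.7 and 61.3 CPM in striatum and 65.9, 41.6, 38.4 and 32.5 CPM in hippocampus, so its groups overlapped at 1 library (2.3-fold, adjusted p = 0.00278). Npas4 was 2.12-fold higher in striatum with overlapping groups (adjusted p = 0.0237), and its call was lost without hippocampus replicate 2 or 4 or striatum replicate 1 or 4 (adjusted p from 0.0669 to 0.0761).

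Of 246 genes of wiring and secreted growth signals, 104 were higher in hippocampus and 68 in striatum, against 24.2% and 19.9% of all genes. Slit1, a repellent ligand for Robo receptors, had 317, 292, 223 and 186 CPM in hippocampus and 21, 15.6, 13.9 and 19.4 CPM in striatum (14.2-fold), and the list of Slit, Robo, netrin and Unc5 genes had 11 of 19 higher in hippocampus and 5 in striatum. The neuropilins Nrp2 (11.5-fold) and Nrp1 (8.44-fold), which receive class 3 semaphorins, and Sema5a (8.53-fold) were higher in hippocampus. Their ligands Sema3f (12.9-fold) and Sema3a (6.38-fold) and the receptor Plxnd1 (8.86-fold) were higher in striatum. Other class 3 ligands, named after their values were seen, were higher in hippocampus with the neuropilins: Sema3c by 1.93-fold and Sema3d and Sema3e by 1.47-fold each. Of 21 Eph and ephrin genes, 10 were higher in hippocampus, led by Ephb2 (6.3-fold), and 5 in striatum, led by Epha8 (10.5-fold). Among synaptic organizers, C1ql2, secreted by granule cells at mossy fibre synapses, had 42.3, 28.6, 22.4 and 18.4 CPM in hippocampus and 0.192 CPM or less in striatum (280.2-fold). C1ql3 (14.7-fold; log2 fold change 4.51 in place of 3.88 without striatum replicate 4) and Nptx1 (10.6-fold, 710.1 ± 87.0 CPM) were higher with it, and Lrrtm3 (5.09-fold), Adgrl2 (2.71-fold) and the cadherin Cdh7 (4.98-fold) were higher in striatum.

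Bdnf, the activity-regulated neurotrophin that reaches the striatum mainly through cortical axons, had 53.1, 51.4, 58.2 and 47.1 CPM in hippocampus and 6.83, 0.351, 1.70 and 8.95 CPM in striatum (11.4-fold, adjusted p = 0.000644). Its striatal level was again highest in replicates 1 and 4, and without them its log2 fold change was 5.61 in place of 3.51. Gdnf, a survival factor of dopamine neurons made by striatal interneurons, was 109-fold higher in striatum (5.61 ± 0.957 against 0.0485 ± 0.0318 CPM). Fgf3 had 5.82 ± 0.661 CPM in striatum and 3 counts in all hippocampus libraries together, a ratio of 240.1 (95% counting interval 81.8 to 1167; fitted log2 fold change −7.71, and −8.64 without hippocampus replicate 4), and Tgfa was 5.07-fold higher in striatum. In hippocampus Fgf10 (13.0-fold), the bone morphogenetic protein antagonist Chrd (9.58-fold) and the Wnt antagonist Frzb (15.2-fold) were higher, as was the receptor kinase Flt3 (6.86-fold), while Acvrl1 was 6.68-fold higher in striatum. Of 37 Wnt pathway genes, 16 were higher in hippocampus, 15 of them over 2-fold, and 11 in striatum.

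**Figure D4:**
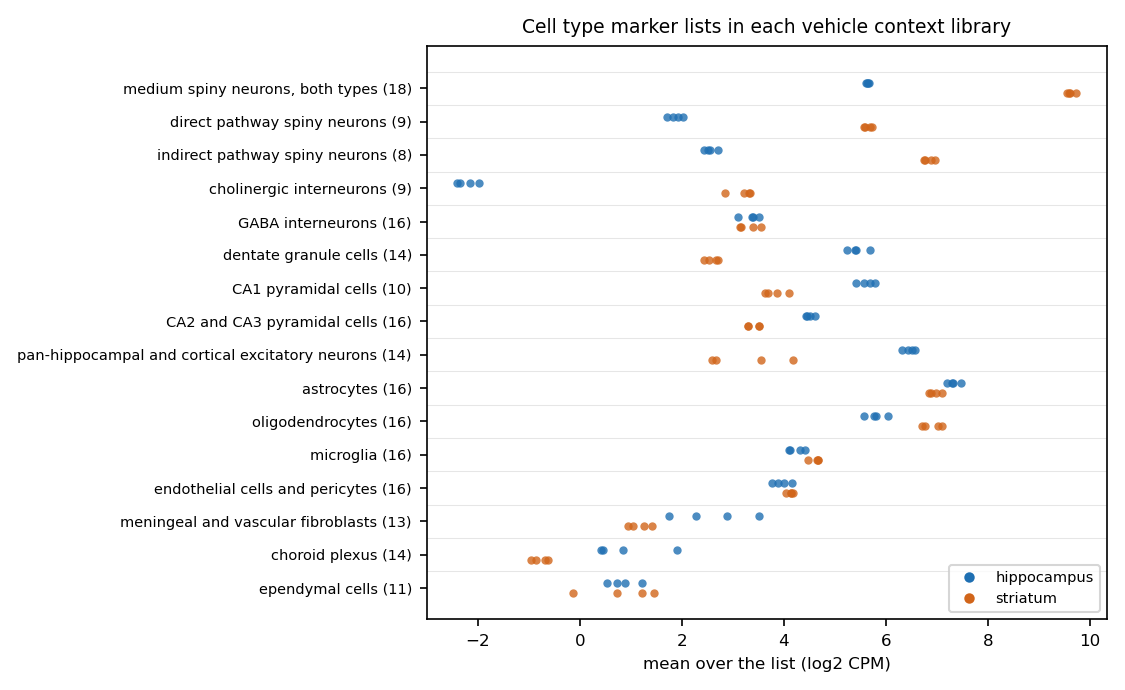
Mean level of each of 16 marker lists (log2 CPM, number of markers tested in brackets) in each hippocampus (blue) and striatum (orange) vehicle context library. Medium spiny, cholinergic and dentate granule cell lists lie far apart, and the excitatory neuron list spreads from 2.59 to 4.17 in striatum.

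Lists of cell type markers hold many of the genes already named, Drd1, Penk and Chat among them. Their counts repeat those results in part and are not separate support. The cholinergic interneuron list had 9 of 9 markers higher in striatum and a mean of −2.40 to −1.98 log2 CPM in hippocampus against 2.85 to 3.33 in striatum. The direct pathway list had 8 of 9 higher in striatum. The exception was Eya1, at 20.3 ± 0.779 CPM in hippocampus and 7.99 ± 1 CPM in striatum (2.49-fold). The indirect pathway list had 8 of 8 higher in striatum. GABA interneuron markers did not separate the regions as a list (7 higher in hippocampus and 6 in striatum of 16), but did so by gene. Calb2, of interneurons and mossy cells, was 15.5-fold higher in hippocampus (28.9 ± 10.3 against 1.81 ± 0.301 CPM), and Reln was 2.64-fold higher in striatum. Among dentate markers, Lct, which encodes lactase, had 107, 73.9, 84.7 and 60.2 CPM in hippocampus and 0.123, 0.0319, 0.128 and 0.0297 CPM in striatum (973-fold), and the desmosomal gene Dsp was 229-fold higher in hippocampus. Pdzd2, on the same list, was 2.74-fold higher in striatum.

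Of the pyramidal cell markers, 6 of 10 for CA1 and 12 of 16 for CA2 and CA3 were higher in hippocampus. Fibcd1 (9.16-fold) and Ndst4 (10.2-fold) led for CA1. Wfs1, a CA1 marker that spiny neurons also express, had 101, 79.6, 87.1 and 57.2 CPM in hippocampus and 83.0, 128, 65.0 and 75.4 CPM in striatum and was not called (log2 fold change −0.14 ± 0.22, adjusted p = 0.649). Coch (26.2-fold) and the CA2 marker Pcp4 (10.8-fold) were on the list of CA2 and CA3 yet higher in striatum.

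All 16 oligodendrocyte markers were higher in striatum, 3 of them over 2-fold. The myelin gene Mobp had 1505, 1116, 1468 and 1028 CPM in striatum and 619, 694, 515 and 581 CPM in hippocampus (2.17-fold), Mbp was 1.99-fold higher and the protease Klk6 14-fold higher. Of 16 microglia markers, 9 were higher in striatum, each by less than 2-fold: Cx3cr1, the fractalkine receptor, by 1.32-fold and Trem2 by 1.66-fold. With replicates 1 and 2 alone, 4 microglia markers were called. Astrocyte markers had 6 of 16 higher in hippocampus and 1 in striatum, S100b by 1.31-fold. Gfap, the intermediate filament of astrocytes, had 369, 305, 264 and 269.6 CPM in hippocampus and 65.7, 44.7, 35.3 and 33.0 CPM in striatum (6.63-fold, adjusted p = 3.4e-10), while the water channel Aqp4 was 1.83-fold higher in hippocampus. Of 14 genes listed as varying between astrocytes of different regions, 7 were higher in hippocampus, 5 of them over 2-fold, and 1 in striatum, Unc13c (19.2-fold, 333 ± 78.7 CPM). This list shares members with the astrocyte list, Gfap among them, and its member Lhx2 is also on the excitatory neuron list. Bulk reads were not assigned to a cell type, so these counts need not be astrocytic. Endothelial and pericyte markers had 4 of 16 higher in striatum (2 without hippocampus replicate 3 or striatum replicate 1, 2 or 3), and Cldn5, of endothelial tight junctions, was not called (7.91 ± 3.51 and 7.73 ± 2.66 CPM, adjusted p = 0.985).

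Markers of meningeal and vascular fibroblasts moved with the hippocampus, 12 of 13 over 2-fold higher there. Their mean was 3.51, 2.28, 1.74 and 2.88 log2 CPM in the hippocampus libraries and 0.95 to 1.42 in striatum, and 6 of 13 were called without hippocampus replicate 1, 7 without striatum replicate 4 and 4 with replicates 3 and 4 alone. No marker of the list was at 0 counts in either region. Lum had 6.24, 3.74, 3.52 and 6.79 CPM in hippocampus against 0.513 to 0.646 in striatum, and Dcn, which CA1 cells also express, had 25.7, 33.6, 9.49 and 58.5 CPM against 4.61 to 5.69. Of 14 choroid plexus markers, 5 were higher in hippocampus, and 2 with replicates 1 and 2 or 3 and 4 alone. Ttr, the transthyretin gene of that tissue, had 98.1, 13.4, 3.87 and 3.44 CPM in hippocampus and 1.29, 1.21, 0.0642 and 0.119 CPM in striatum (adjusted p = 0.0176). Without hippocampus replicate 1 its log2 fold change was 3.32 in place of 5.43 and it was not called (adjusted p = 0.167). Kl, the klotho gene, was on the same list but even over the hippocampus libraries, at 26.6, 23.1, 28.6 and 23.7 CPM against 1.70 to 2.46 CPM in striatum (12.8-fold), and Clic6 was 11-fold higher in striatum (log2 fold change −3.46, and −4.26 without hippocampus replicate 1). The medians of 11 ependymal and 5 blood markers were −0.04 and 0.19 on the log2 scale.

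The ranking over all genes added some that belong to none of these families. Krt2, a keratin gene, had 8.82, 9.33, 5.27 and 6.82 CPM in hippocampus and no count in striatum, at least 324-fold higher against 3 counts over the striatum group. Slc9a4, a sodium and proton exchanger, was 310.2-fold higher in hippocampus (log2 fold change 8.28, and 9.29 without striatum replicate 4), and Syna, an envelope-derived gene, had 7.11 ± 1.04 CPM there and 2 counts in striatum (ratio 459, 95% counting interval 127 to 3795). In striatum Gpx6, a glutathione peroxidase, had 6.00, 5.43, 6.45 and 5.92 CPM and no count in hippocampus, at least 246-fold higher. Sh3rf2 had 105, 96.1, 97.2 and 83.0 CPM in striatum and 0.0284, 0, 0.0320 and 0.131 CPM in hippocampus (1849-fold; log2 fold change −10.85, and −11.89 without hippocampus replicate 4). Cd4, known as the coreceptor of helper T cells, had 113, 115, 106 and 102 CPM in striatum and 0.312, 0.185, 0.415 and 0.164 CPM in hippocampus (400.4-fold). Serpina9 (601-fold) and Ptprv (367-fold) were higher in striatum, and Impg1 had 6.03 ± 2.51 CPM there and 1 count in hippocampus (ratio 749, interval 134 to 29633; fitted log2 fold change −8.97, and −10.49 without hippocampus replicate 1).

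The same contrast in the conditioned vehicle mice, which share no library with the context mice, called 4700 genes higher in hippocampus (24.5%) and 3986 higher in striatum (20.8%), together 45.2%. Over 2-fold were 1618 (8.43%) and 1575 (8.2%), together 16.6%. Of the 1712 genes over 2-fold higher in hippocampus at baseline, 1587 (92.7%) were also called higher there in the conditioned mice, and of the 1502 over 2-fold higher in striatum, 1430 (95.2%). The sign was opposite for 7 and 3 of them. Over the other 12 hippocampus and 12 striatum libraries of the series, drug-treated ones included, the regions did not overlap for 1115 (65.1%) and 1110 (73.9%) of these genes. For all genes called at baseline, at any fold, the shares were 43.8% and 45.5%. The share over all genes tested is not given here, so how far these shares exceed it is not known. Drd1 was at −7.04 in context mice and −6.70 in conditioned mice, Lct at 9.93 and 9.35, and Prox1 at 3.44 and 3.65, all as log2 fold changes. Ttr moved most among the genes named, from 5.43 to 1.74. The striatum library of conditioned replicate 3 had the highest mean of excitatory neuron markers, 4.66 log2 CPM, and the lowest of medium spiny markers, 9.30. Without it 4998 genes were called higher in hippocampus. The difference of the region contrast between the sets of mice was tested in the same fit: edgeR called 0 of 19198 genes (0%), with 194 at unadjusted p under 0.05, and DESeq2 called 0, with 144. Both counts lie below the share of 0.05 expected with no difference. The reason for these low counts was not tested, and 0 calls do not show that the contrasts were equal.

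**Figure D5:**
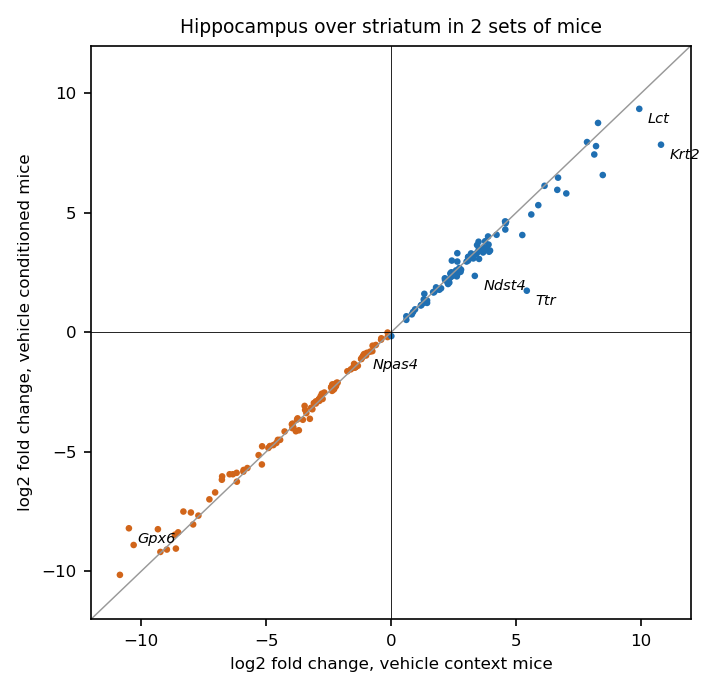
Log2 fold change, hippocampus over striatum, of the genes named in the text in vehicle context mice (horizontal axis) and in vehicle conditioned mice (vertical axis). Each point is 1 gene, blue where it was higher in hippocampus at baseline and orange where higher in striatum, and the grey line marks equal values. Ttr, at 5.43 and 1.74, lies farthest from the line.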

How the data were processed

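Polyadenylated RNA of single hemispheres was sequenced from stranded libraries, and the authors deposited 1 table of raw counts per gene for all 32 libraries. The submitters' processing notes list STAR 2.6, bcl2fastq 2.20.0 and DESeq2 as tools and mm10 as genome build, without their roles. How reads were assigned to genes, and whether by strand, is not given in the sources used here. Symbols, coordinates and exon lengths came from GENCODE M21, which names 54079 of the 54146 identifiers in the table. The 67 without a name took up to 0.0264% of the counts in a library.

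Libraries were grouped by their titles. All 32 were fitted in R 4.3.3 with edgeR 4.0.16 (8 group means, TMM, filterByExpr, quasi-likelihood F test, two-sided), which left 19198 genes and 24 residual degrees of freedom. Levels in CPM are counts over the library total with no further scaling, RPKM is CPM per kilobase of exon, and list means are log2 CPM with TMM and a prior count of 2. Counting intervals are exact binomial at 95% and, like floors of 3 counts, cover counting error only. The median SE of a log2 fold change was 0.15. On simulated counts with known changes this fit called 22% of genes changed 1.25-fold, 70% at 1.5-fold, 90% at 2-fold and 100% at 4-fold (50 genes each of 18881). Of its calls there, 1.4% were false. The simulated libraries had few changed genes and no split between replicates, unlike the data, so these shares need not hold for the data. Replicates differed from each other beyond sampling noise, with chi-square values over their degrees of freedom of 9.45 to 51.0.

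Gene lists (38 lists by family or function set by symbol, 26 sets of cell type markers) were described by counts and medians with no set test. Some of the 38 lists, such as transmitter synthesis and transport, join chosen members of several families and are not whole families. Genes were named if they were among 41 textbook genes, among the 3 with the largest fold in each direction of a list, or among the 10 in each direction over all genes, given a call and a mean of at least 5 CPM in the higher region. The ranking over all genes also required groups that did not overlap. It left out clone, predicted-gene and antisense or host transcript names. The members and lists were chosen with earlier results of these data known. The labels do not say that same-numbered libraries of the regions come from 1 mouse. Their deviations from the group means correlated across genes (r = 0.43, 0.145, 0.229 and 0.339 for replicates 1 to 4), and each value over 0.1 was the rule for pairing, so a fit with a replicate block was run. Unlike numbers correlated as well, replicates 1 with 2 at 0.221 and 0.192 and replicates 3 with 4 at 0.237 and 0.236, so a split of replicates 1 and 2 from 3 and 4 cannot be told apart from pairing by number. Alternatives were other scalings, DESeq2 1.42.0, no filter, fewer libraries, each pair of replicates and each library left out. Some genes that the rule would name are not reported here.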

Additional observations from a re-analysis of the deposited data

Results flagged for a closer look

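Of 498 groups of 4 libraries examined for a value far from the other 3, 23 were flagged, and chance flags about 1 in 20. Striatum replicate 4 was the highest of its group for 6 genes that were higher in hippocampus: Adra1d at 0.714 CPM (others 0.154 to 0.224), Gabbr2 at 109 (71.3 to 76.4), Htr1a at 3.72 (2.31 to 2.49), Pde11a at 2.11 (0.953 to 1.15), Pde1a at 89.8 (38.5 to 42.2) and Prdm8 at 1.52 (0.353 to 0.492). The same library was lowest in the mean of the microglia list, 4.47 log2 CPM (others 4.65 to 4.67), and of the endothelial and pericyte list, 4.04 (4.15 to 4.17). It also had the highest mean of excitatory neuron markers, and the part of that in these values was not tested.

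Striatum replicate 1 was lowest for Ano3 at 558 CPM and highest in the list means of zinc finger factors, 3.46 log2 CPM, and of protein phosphatase 1 regulators, 4.85. Hippocampus replicate 1 was highest for Ttr at 98.1 CPM, Ppp1r1b at 31.5 and Zfpm2 at 46.5, and lowest in the serotonin receptor list at 2.69 log2 CPM. Hippocampus replicate 2 was lowest for Kcnj2 at 12.1 CPM. Hippocampus replicate 3 was lowest for Ano2 at 1.53, Cacna2d2 at 20.1 and Grp at 3.52 CPM, and highest for Gria1 at 1537 and Lhx9 at 24.2 CPM. Hippocampus replicate 4 was lowest for Adora1 at 280.0 CPM and highest for Adgrl2 at 55.1 CPM.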

How the results depend on the processing

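Tested against a 2-fold change itself (glmTreat), 1017 genes were over 2-fold higher in hippocampus and 967 in striatum, in place of 1712 and 1502. With replicates 3 and 4 alone, 2924 genes were called higher in hippocampus in conditioned mice, in place of 4700, with fewer libraries in the fit. Leaving out 1 library at a time gave 4112 to 4605 genes higher in hippocampus and 3502 to 4172 higher in striatum at baseline, of which 1672 to 1740 and 1478 to 1645 were over 2-fold. In conditioned mice the same gave 3759 to 4998 and 3638 to 4133 genes, with 1463 to 1812 and 1530 to 1710 over 2-fold, and 0 genes for the difference between the sets of mice. With the replicate block, 5361 and 4539 genes were called at baseline, 1721 and 1517 of them over 2-fold, and no call of a named gene changed. Library-size scaling put 58.5% of called genes on the hippocampus side, size factors 51.3% and TMM 54.9%. Of 191 named genes 9 lost a call under some alternative and none changed sign. With replicates 3 and 4 alone these were Cacna1g, Emx1, Npas4, Slc17a6, Slc17a7, Ttr and Vip, and with replicates 1 and 2 alone Clic6, Cx3cr1, Npas4, Slc17a6 and Ttr. Without striatum replicates 1 and 4 they were Npas4, Slc17a6 and Ttr. Of 128 list counts 34 moved by over 1.5 times in at least 1 setting, mostly lists with 5 or fewer calls. The cause was not tested. Genes under a few CPM in the lower region have folds set by single counts.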
